A study of Mus musculus with 21 samples.

Results

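The unfolded protein response and the integrated stress response were followed through 35 genes in heart RNA of 21 male C57BL/6NJ mice. The members were taken by gene symbol from the deposited gene table, where 35 of 35 were found. The rule itself uses symbols only, but the list was drawn up with earlier results of these data known. They fell into 3 sensors, the transcription factor Xbp1, 16 chaperones and folding enzymes of the endoplasmic reticulum (ER), 7 genes of ER-associated degradation, and 8 genes formed by Atf4 and its targets. The groups of hearts came from a diet and virus model of heart failure in which the ejection fraction is kept: 4 chow control, 6 chow renin, 6 high-fat control and 5 high-fat renin. Mice were 8 to 10 weeks old when they were assigned to chow or to a feed with 60% of its energy from fat, which they ate for 10 weeks, and hearts were taken 6 weeks after injection. Renin groups received an adeno-associated virus carrying Renin, while the control groups received a null vector according to the design text and "novirus" according to the sample titles. The promoter and serotype of the vector are not given in the sources used here, and each library came from heart tissue of 1 mouse.

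The ER folds secreted and membrane proteins, and unfolded protein there is sensed by PERK (Eif2ak3), IRE1 (Ern1) and ATF6. IRE1 splices the Xbp1 message, and spliced XBP1 together with cleaved ATF6 switches on chaperones such as BiP (Hspa5) and the machinery that carries misfolded proteins out for destruction. PERK instead phosphorylates the initiation factor eIF2α, as do other kinases that respond to amino acid shortage, haem shortage or mitochondrial stress, and this favours translation of ATF4. ATF4 raises genes of amino acid synthesis and transport and, under lasting stress, CHOP (Ddit3) and TRIB3. Chaperones and ATF4 targets can thus move separately, and they are described separately here.

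The DNA elements of these arms were read from the promoter sequences of RefSeq (build GRCm38.p6, 250 bases before to 50 bases after each start site), which held 30 of the 35 genes. The ER stress element, written as CCAAT, then 9 bases, then CCACG, was searched on both strands. It was present in 9 of these 30 genes, beside 0.137% of all 27025 genes with a promoter (0.119% of all 32851 promoters). The 9 were Hspa5, Hsp90b1, Calr, Canx, Pdia6, Dnajc3, Creld2, Syvn1 and Derl3. The second part alone, CCACG, which every full element contains, was in 25 of the 30 genes, beside 35.5% of all genes (32.8% of all promoters). The core TGACGTGG of the unfolded protein response element was in 0 of the 30, beside 0.714% of all genes (0.676% of all promoters). The ATF4-C/EBP element TGATGNAA was in 4 of the 30, Asns, Chac1, Trib3 and Herpud1, beside 4.51% of all genes (3.97% of all promoters). Shown first are the 4 chaperone promoters whose genes were called lower in chow renin hearts, with Creld2 as a carrier of the element that was not called, and then 3 ATF4-C/EBP matches. Capitals mark the match, all lines read 5′ to 3′ on the strand of the gene, and each shows up to 20 bases on either side.
Hspa5, chr2:34772005-34772063, plus strand: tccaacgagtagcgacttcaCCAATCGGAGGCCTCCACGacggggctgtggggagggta
Hsp90b1, upstream match, chr10:86705618-86705676, minus strand: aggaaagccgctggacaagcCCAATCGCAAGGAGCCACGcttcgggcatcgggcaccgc
Hsp90b1, match nearer the start site, chr10:86705513-86705571, minus strand: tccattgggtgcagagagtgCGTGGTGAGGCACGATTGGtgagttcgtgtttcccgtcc
Calr, chr8:84847055-84847113, minus strand: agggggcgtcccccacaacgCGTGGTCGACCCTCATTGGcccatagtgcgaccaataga
Pdia6, chr12:17266471-17266529, plus strand: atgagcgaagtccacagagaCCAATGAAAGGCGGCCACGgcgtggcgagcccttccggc
Creld2, chr15:88819500-88819558, plus strand: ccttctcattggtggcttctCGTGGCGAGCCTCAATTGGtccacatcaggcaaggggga
Asns, chr6:7693210-7693252, minus strand: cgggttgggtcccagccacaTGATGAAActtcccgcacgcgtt
Chac1, chr2:119351029-119351076, plus strand: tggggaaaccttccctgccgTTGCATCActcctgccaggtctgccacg
Herpud1, chr8:94386297-94386344, plus strand: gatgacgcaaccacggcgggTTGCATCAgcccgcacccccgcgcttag
The elements of Calr, Creld2, Chac1 and Herpud1, and the match nearer the start in Hsp90b1, lie on the strand opposite to the gene, so the printed letters are their reverse complement. In Hspa5 the element runs from base -65 to base -47 before the start site, and in Asns the ATF4-C/EBP match runs from -23 to -16. Such a match is a description of letters and was not tested for binding.

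The libraries held 18.6 to 29.0 M (mega) estimated reads assigned to annotated genes, and those of chow control were the shallowest (18.6 to 21.2 M). Cardiomyocyte markers were read in all 21 libraries, 6 of 6, and their sum was 40105 to 47106 CPM in high-fat renin and 46015 to 48294 CPM in chow renin, both below the 49716 to 60656 CPM of chow control, with 46519 to 54905 CPM in high-fat control. Of the 6, 4 were called lower in high-fat renin versus chow control, 4 versus high-fat control, and 2 in chow renin. Summed central neuron, oligodendrocyte and astrocyte markers were higher in all 6 chow renin libraries than in any other. Their summed levels there were 161 to 263, 50.9 to 90.6 and 78.5 to 133 CPM (estimated counts scaled to library size), against 48.9 to 87.5, 12.9 to 25.6 and 22.8 to 40.0 CPM in the other groups, and no marker of the 3 lists was at 0 in every library of a group. Markers of stimulated stromal cells were high in the same 6 libraries, with sums of 417 to 496 CPM against 90.3 to 123 CPM elsewhere, and 7 of 7 were called higher in chow renin. A clock score, the mean log2 CPM of day genes such as Dbp minus that of night genes such as Arntl, was 3.69 to 4.00 in chow control and 2.28 to 3.49 in high-fat renin, without overlap. The summed fibroblast markers were 949 to 1469 CPM in high-fat renin, and they overlapped with chow control (590.01 to 1048 CPM) and high-fat control (583 to 1371 CPM), while chow renin ran from 558 to 831 CPM. Summed atrial markers had medians of 2.38, 4.88, 2.99 and 2.99 CPM in chow control, chow renin, high-fat control and high-fat renin. Their highest libraries reached 569, 421, 523 and 407 CPM, so atrial content differed between libraries within each group and was not adjusted for. What share of any result below follows these measures was not tested beyond the values given beside it.

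Per unit of length, 3 chaperones had the highest mean levels of the 35 genes. Hspa5 averaged 187 ± 28.4 TPM (SD, n = 21, scaled for transcript length and library size), Calr, a lectin chaperone that also binds calcium, 121 ± 14.4 TPM, and Hsp90b1, the HSP90 of the ER, 99.7 ± 12.3 TPM. Herpud1, a membrane component of the degradation machinery, stood beside them at 95.5 ± 20.01 TPM, and the spreads of these last 2 genes overlapped. Atf4 averaged 35.1 ± 5.30 TPM, Atf5 25.7 ± 5.10 TPM, Xbp1 22.4 ± 2.90 TPM and Ddit3 20.5 ± 4.65 TPM. The 3 sensors were far lower, at 10.6 ± 2.59 TPM for Atf6, 2.11 ± 0.352 TPM for Ern1 and 1.76 ± 0.238 TPM for Eif2ak3. Asns, asparagine synthetase, averaged 2.32 ± 1.13 TPM, and Trib3, a pseudokinase, 1.51 ± 0.248 TPM. Derl3, a derlin of secretory cells, was lowest at 0.361 TPM, with libraries from 0.057 to 1.58 TPM, and was the only member that did not pass the filter on low counts.

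**Figure D1:**
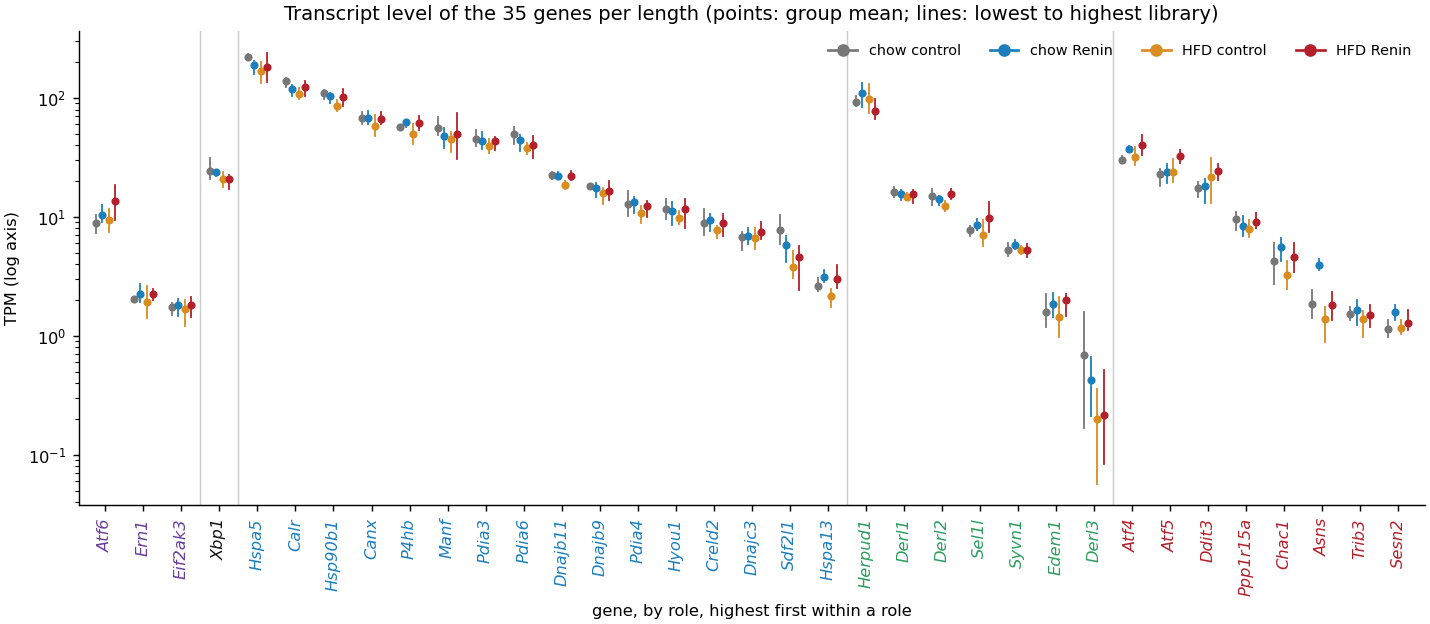
Level of each of the 35 genes in TPM on a log axis, by role, with the group mean as a point and a line from the lowest to the highest library of the group. Hspa5 (187 TPM on average) is the highest and Derl3 (0.361 TPM) the lowest, while Asns is the gene whose chow renin libraries stand clear of the other groups.

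Expression was tested in 15216 genes with edgeR's quasi-likelihood test, and a gene was called at a Benjamini-Hochberg adjusted p under 0.05 over all of them. All fold changes and adjusted p-values that follow are from this test, on the log2 scale, unless another source is named. In high-fat renin versus chow control, 5 of the 34 tested members were called, 3 higher (Atf4, Atf5, Atf6) and 2 lower (Pdia6, Sdf2l1), where 8.29% of all genes were called, 4.05% higher and 4.25% lower. In chow renin versus chow control, 6 were called, 2 higher (Asns, Sesn2) and 4 lower (Hspa5, Hsp90b1, Calr, Pdia6), beside 13.5% of all genes, 10.1% higher and 3.36% lower. In high-fat control versus chow control, 0 members were called by edgeR, with 9 at an unadjusted p under 0.05 and 3 called lower by DESeq2. Of all genes edgeR called 0.0657% there, 0.0131% higher and 0.0526% lower, 1668 had an unadjusted p under 0.05, and DESeq2 called 47 higher and 70 lower. These 3 comparisons share the 4 chow control hearts.

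Against high-fat control, high-fat renin hearts had 5 called members, 4 higher (Atf5, P4hb, Hspa13, Sel1l) and 1 lower (Herpud1), where 11.1% of all genes were called, 6.07% higher and 5.08% lower. Against chow renin they had 7, 5 higher (Atf4, Atf5, Atf6, Ddit3, Derl2) and 2 lower (Asns, Herpud1), beside 22.6% of all genes, 9.8% higher and 12.8% lower. The effect of renin differed between the diets (an interaction) for 4 members, with 3 shifted upward on the high-fat diet (Hsp90b1, Calr, Dnajb11) and 1 downward (Asns), beside 10.4% of all genes, 3.14% upward and 7.3% downward. In all, 17 of the 35 genes were called in at least 1 of the 6 comparisons. The changes were small: the smallest called log2 fold change was 0.18 in size, the largest 1.18, and 26 of the 27 called values were under 1. The members called made up 14.7%, 17.6%, 0%, 14.7%, 20.6% and 11.8% of those tested in the order above, and no test set these shares against those of all genes.

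**Figure D2:**
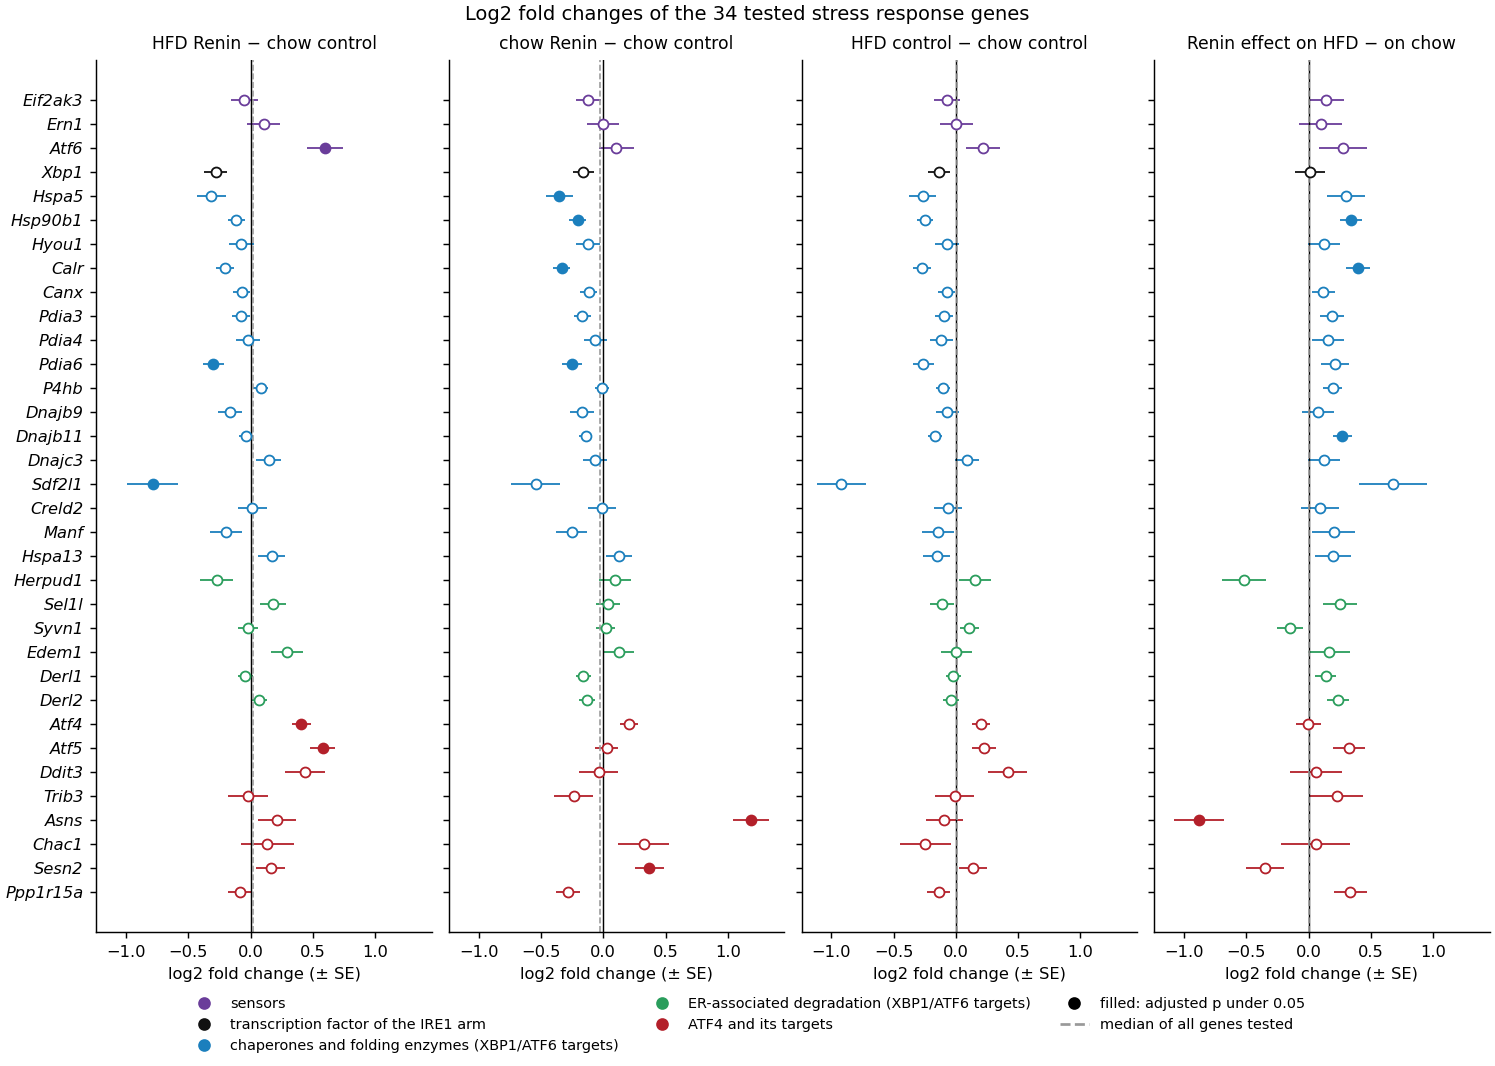
Log2 fold change (points) with its standard error (lines) of the 34 tested genes in 4 comparisons, coloured by role, filled where the adjusted p was under 0.05, with a dashed line at the median of all genes tested. The 16 chaperones, in blue, lie mostly left of 0 in the comparisons with chow control and all lie right of 0 in the interaction, while Atf4 and Atf5 are filled to the right in high-fat renin and Asns in chow renin.

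Among the sensors, Atf6, which is cut in the Golgi to release a transcription factor, rose in high-fat renin hearts. Its level was 85.1, 92.3, 73.4 and 67.6 CPM in chow control, from 73.3 through a median of 85.0 to 106 CPM in chow renin, and from 74.4 through 96.5 to 109.7 CPM in high-fat control. High-fat renin libraries gave 155, 134, 108, 87.2 and 119 CPM. Of these 5 libraries, 4 lay above every chow control library and every chow renin library, and the fourth overlapped with all groups. The log2 fold change was 0.60 (SE 0.15, adjusted p = 0.0155) against chow control and 0.49 (SE 0.13, adjusted p = 0.00824) against chow renin. The first call was lost without chow control library 4 or high-fat renin library 1 (adjusted p 0.0537 to 0.0662), and the second without high-fat renin library 1 (adjusted p 0.0525). After adjustment for the clock score the first value was 0.09 (adjusted p = 0.945). The second was 0.02 (adjusted p = 0.999817) after adjustment for a central nervous score, the mean log2 CPM of the neuron, oligodendrocyte and astrocyte markers. Against high-fat control the value was 0.38 (SE 0.13, adjusted p = 0.0629), which did not pass. Fewer cells of a type and less RNA per cell cannot be told apart in whole tissue, for this gene and for those that follow. Ern1 and Eif2ak3 were called in none of the 6 comparisons, and their log2 fold changes lay between -0.12 and 0.14.

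Xbp1, the target of IRE1, was called in none of the comparisons. It stood at 51.2, 42.5, 59.5 and 45.2 CPM in chow control and at 40.3, 35.5, 44.2, 42.0 and 42.0 CPM in high-fat renin. Chow renin ran from 40.7 through 44.2 to 47.1 CPM and high-fat control from 39.9 through 43.9 to 53.5 CPM. The groups overlapped, although 4 of the 5 high-fat renin libraries lay below every chow control library, with a log2 fold change of -0.28 (SE 0.09, adjusted p = 0.0572). The full-length coding transcript held 71.3% to 84.7% of the TPM of the gene over all libraries. None of the 4 annotated transcripts (GENCODE M21) has the intron of 26 bases that IRE1 removes, so the spliced and the unspliced message cannot be told apart in these tables.

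Most chaperones and folding enzymes lay below the chow control level in each of the other groups. In chow renin versus chow control, 15 of the 16 log2 fold changes were below 0, with a median of -0.16 against -0.03 over all genes, of which 8458 of 15216 were below 0. Of the 16, 4 were called, all lower (25%, beside 13.5% of all genes, 3.36% lower). In high-fat control 15 of 16 were also below 0, with a median of -0.13 against 0.01 over all genes. Of all genes 7238 of 15216 were below 0 there. Of the 16, 0 were called, beside 0.0657% of all genes, and 6 had an unadjusted p under 0.05. In high-fat renin 12 of 16 were below 0, with a median of -0.08 against 0.01, and 2 were called lower (12.5%, beside 8.29% of all genes, 4.25% lower). The same chow control hearts stand in all 3 comparisons, and they were the shallowest libraries. With every library thinned to the smallest, the median of all tested members, not of the chaperones alone, was -0.08 in chow renin (-0.09 before). In high-fat control it was -0.08 (-0.07 before) and in high-fat renin -0.03 (-0.02 before). Thinning keeps the expected share of reads of each gene, so these medians cannot decide what the lower depth did.

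Hspa5, the master chaperone BiP, was 599, 581, 539.7 and 531 CPM in the 4 chow control libraries. Chow renin ran from 388 through 436 to 487 CPM, and all 6 libraries lay below every chow control library. High-fat control ran from 368 through 453 to 586 CPM, and high-fat renin gave 563, 345, 447, 468 and 437 CPM, each with 1 library inside the chow control range. Chow renin had a log2 fold change of -0.35 (SE 0.11, adjusted p = 0.0343). The values in high-fat control, -0.27 (adjusted p = 0.382), and in high-fat renin, -0.32 (adjusted p = 0.092), were of like size and did not pass. After adjustment for the central nervous score the chow renin value was -0.11 (adjusted p = 0.973), in a fit that called 30 of all genes higher and 1 lower.

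Calr had the smallest adjusted p of the 16 in chow renin. Chow control stood at 336, 329.8, 302 and 283 CPM, and chow renin at 227 to 258 CPM with a median of 251 CPM, without overlap. High-fat control ran from 233 through 253 to 300.4 CPM, and high-fat renin gave 293, 236, 270.1, 278 and 276 CPM. The log2 fold change in chow renin was -0.33 (SE 0.07, adjusted p = 0.00146), and the call held without any single library. On the high-fat diet renin gave 0.06 (SE 0.07, adjusted p = 0.595), and the difference between the diets was 0.40 (SE 0.10, adjusted p = 0.00797).

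Hsp90b1, which folds integrins and Toll-like receptors, was 388, 364, 355 and 323 CPM in chow control, 285 through 316 to 319 CPM in chow renin, 274 through 299.6 to 327 CPM in high-fat control, and 355, 293, 326, 321 and 356 CPM in high-fat renin. All 6 chow renin libraries lay below the chow control range, while 3 of the 5 high-fat renin libraries fell within it. The log2 fold change in chow renin was -0.21 (SE 0.07, adjusted p = 0.041) and the difference of the renin effects between diets was 0.34 (SE 0.09, adjusted p = 0.0162).

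Dnajb11, a co-chaperone of BiP, was called in the interaction and in none of the 5 comparisons between groups. Its levels were 50.9, 45.7, 47.9 and 44.1 CPM in chow control and 46.7, 44.1, 45.9, 45.1 and 47.9 CPM in high-fat renin, against 40.2 through 43.0 to 44.5 CPM in chow renin and 38.9 through 42.7 to 44.5 CPM in high-fat control. Chow renin and high-fat control each had 5 of 6 libraries below every chow control library. The difference was 0.27 (SE 0.07, adjusted p = 0.018). For all 16 chaperones this difference was above 0, with a median of 0.20 against 0.01 over all genes, of which 51.2% were above 0. Of the 16, 3 were called (18.8%), beside 10.4% of all genes, 3.14% upward. The chow control hearts enter this difference as well, and in high-fat renin versus high-fat control the chaperone median was 0.06.

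Sdf2l1 is a stress-induced partner of BiP and its co-chaperones. Chow control gave 10.8, 7.22, 7.63 and 6.11 CPM, and high-fat renin 5.31, 2.59, 5.10, 4.26 and 5.72 CPM, without overlap. High-fat control lay at 3.36 through 3.91 to 5.26 CPM, also below every chow control library, and chow renin at 4.09 through 5.60 to 6.73 CPM, where 4 of 6 did. The log2 fold change in high-fat renin was -0.79 (SE 0.21, adjusted p = 0.0204), and it was lost without chow control library 1 (adjusted p 0.0958), where 3 of the 5 calls in that comparison were left. In high-fat control it was -0.92 (SE 0.20, adjusted p = 0.0962), and in chow renin -0.54 (SE 0.20, adjusted p = 0.0682).

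Pdia6, a disulphide isomerase, fell from 115 ± 12.9 CPM (SD, n = 4) in chow control to 93.2 ± 9.61 CPM in high-fat renin (n = 5), a log2 fold change of -0.30 (SE 0.08, adjusted p = 0.0282), and to 96.4 ± 7.89 CPM in chow renin (n = 6), -0.25 (SE 0.08, adjusted p = 0.037). P4hb, another disulphide isomerase and a subunit of the collagen prolyl hydroxylase, rose from 168 ± 10.7 CPM in high-fat control (n = 6) to 191 ± 12.2 CPM in high-fat renin (n = 5), a log2 fold change of 0.18 (SE 0.05, adjusted p = 0.0264). Hspa13, an HSP70 of microsomes, rose from 11.98 ± 1.56 to 15.0 ± 1.94 CPM in the same comparison, 0.32 (SE 0.10, adjusted p = 0.0372). The other 8 members of this role, Hyou1, Canx, Pdia3, Pdia4, Dnajb9, Dnajc3, Creld2 and Manf, were called in none of the 6 comparisons. Manf, a secreted ER protein with protective effects in heart cells, had -0.25 (adjusted p = 0.208) in chow renin and -0.20 (adjusted p = 0.38) in high-fat renin.

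Several of these calls hung on single libraries. The count of 6 in chow renin fell to 3 without chow control library 1, 2 or 3, or chow renin library 1 or 5. Hspa5 was lost without chow control library 1 or 2, or chow renin library 1, 2, 3 or 5 (adjusted p 0.0672 to 0.134). Hsp90b1 was lost without chow control library 1, 2 or 3, chow renin library 1, 2, 3, 4 or 5, or high-fat renin library 1 (adjusted p 0.0545 to 0.219), and Pdia6 without chow control library 1, 2 or 3, or chow renin library 1, 2, 3, 5 or 6 (adjusted p 0.05003 to 0.227). In high-fat renin, Pdia6 was lost without chow control library 1 or 2, or high-fat renin library 2 or 5 (adjusted p 0.0583 to 0.113). The interactions of Hsp90b1 and Dnajb11 were lost without chow control library 1 or high-fat renin library 1, and that of Dnajb11 also without chow renin library 3 (adjusted p 0.0541 to 0.0839 over both genes), and without either of the first 2 libraries the count of interactions was 2. With upper-quartile factors the 4 members called in chow renin were 3 higher and 1 lower, in place of 2 higher and 4 lower. With limma on log2(TPM + 1) they were 3 higher and 0 lower, so all 4 lower calls, that of Calr included, were lost, and the median of the tested members was 0.05 in place of -0.09.

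The promoter element and these calls can be set side by side. The 4 chaperones called lower in chow renin all carry the full ER stress element, as 4 of the 8 tested members with it were called lower and 0 of the 21 tested members without it were, beside 3.36% of all genes. Outside the members, 9 tested genes carry the element, and of these 0 were called lower and 1 higher. The median log2 fold change was -0.162 over the 8 members with the element and -0.04 over the 21 without it. The 21 include genes of other roles, such as Asns and Sesn2, which were called higher. Over all 16 chaperones, with or without the element, the median was -0.155, so role and element are not separated here. Creld2, Dnajc3, Canx and Syvn1 carry it and lay at -0.01, -0.07, -0.12 and 0.02 in chow renin, none of them called. The difference between the shares was not tested. Between high-fat renin and chow control, 1 of the 8 with the element (Pdia6) and 3 of the 21 without it (Sdf2l1, Atf4, Atf5) were called, beside 8.19% of the 11376 tested genes whose promoter lacks it.

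Several chaperones varied with Hspa5 from heart to heart. After the group means were removed, the log2 CPM of Hspa5 correlated across the 21 libraries with Calr at r = 0.74 (Spearman rho 0.76), with Hsp90b1 at 0.73 (rho 0.76), with Canx, a membrane lectin chaperone, at 0.72 (rho 0.69) and with Hyou1, a large HSP70 relative, at 0.71 (rho 0.74). Without the 2 libraries farthest from the median of Hspa5 these were 0.54, 0.61, 0.74 and 0.67, and over all 15 other chaperones r ran from 0.06 for Pdia3 to 0.74 for Canx, with Pdia4 at 0.08, Sdf2l1 at 0.12 and Creld2 at 0.16. With all libraries the 15 had r above 0, with a median of 0.46, and the lowest was 0.08 for Dnajc3. Among the 8 genes of the ATF4 arm the median r with Hspa5 was -0.07, against -0.04 over the 15182 other genes tested. Those other genes ran from -0.84 to 0.81, so some lay above every chaperone. The values share library depth and the scaling of each library, and they are given as a description.

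ER-associated degradation showed no common direction. In high-fat renin versus chow control 3 of its 6 tested genes lay above 0 and 3 below, with a median of 0.02. Of the 6, 0 were called there, beside 8.29% of all genes. In each other comparison 3 or 4 of the 6 lay above 0. Herpud1 was 197 ± 29.4 CPM in high-fat control (n = 6), 189 ± 31.6 CPM in chow renin (n = 6) and 146 ± 25.2 CPM in high-fat renin (n = 5). High-fat renin hearts had a log2 fold change of -0.43 for it (SE 0.12, adjusted p = 0.0266) relative to high-fat control and -0.36 (SE 0.12, adjusted p = 0.0325) relative to chow renin. Its promoter holds the ATF4-C/EBP letters shown above. Sel1l, the scaffold of the ubiquitin ligase HRD1, moved the other way, from 52.9 ± 6.01 CPM in high-fat control to 64.7 ± 8.99 CPM in high-fat renin, a log2 fold change of 0.29 (SE 0.09, adjusted p = 0.0416).

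Derl2, a derlin of the same exit channel, was called in 1 comparison. It gave 24.9, 23.1, 24.1 and 23.0 CPM in chow control, 20.4 through 21.6 to 23.3 CPM in chow renin, 21.1 through 23.2 to 25.5 CPM in high-fat control and 22.4, 26.7, 24.7, 24.1 and 26.6 CPM in high-fat renin. Of the 5 high-fat renin libraries 4 lay above every chow renin library, and the log2 fold change between these groups was 0.19 (SE 0.06, adjusted p = 0.0192). Syvn1 (HRD1 itself), Edem1 and Derl1 were called in none of the comparisons, and the highest of their values against chow control was 0.29 for Edem1 in high-fat renin (adjusted p = 0.168).

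The calls of high-fat renin versus high-fat control depended on single libraries: the count of 5 fell to 1 without high-fat renin library 1 or 2, to 2 without high-fat renin library 5, and to 3 without chow renin library 1, 3 or 5, or high-fat control library 3 or 5. Herpud1 was lost there without high-fat control library 3, or high-fat renin library 1 or 2 (adjusted p 0.056 to 0.0933), and P4hb without high-fat control library 5, or high-fat renin library 1, 2 or 5 (adjusted p 0.0571 to 0.114). Hspa13 was lost without 8 single libraries (chow renin 1, 3 and 5, high-fat control 3 and 6, high-fat renin 1, 2 and 5; adjusted p 0.052 to 0.179). Sel1l was lost without 11 (chow control 2, chow renin 1, 3 and 5, high-fat control 2, 4, 5 and 6, high-fat renin 1, 2 and 5; adjusted p 0.05097 to 0.196). Against chow renin, Herpud1 was lost without chow renin library 1 or 2, or high-fat renin library 1, 2 or 4 (adjusted p 0.0621 to 0.0907), and Derl2 without chow renin library 1 or 3, or high-fat renin library 2 or 5 (adjusted p 0.0625 to 0.118).

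Atf4 and its close relative Atf5, transcription factors of the integrated stress response, had their highest means in high-fat renin hearts. Atf4 was 52.4, 53.4, 57.7 and 56.3 CPM in chow control, 59.4 through 62.8 to 67.7 CPM in chow renin, 54.7 through 63.4 to 71.8 CPM in high-fat control and 82.9, 74.8, 71.4, 62.5 and 73.0 CPM in high-fat renin. All 5 high-fat renin libraries and all 6 chow renin libraries lay above every chow control library, as did 5 of 6 in high-fat control. The log2 fold change in high-fat renin was 0.41 (SE 0.08, adjusted p = 0.00232) against chow control and 0.20 (SE 0.07, adjusted p = 0.0343) against chow renin. Against high-fat control it was 0.21 (adjusted p = 0.0508), which did not pass, with 3 of 5 libraries above all of that group. In chow renin and high-fat control it was 0.21 (adjusted p = 0.0628) and 0.20 (adjusted p = 0.312), and the interaction was 0.00 in size (adjusted p = 0.996).

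Atf5, whose product also serves the mitochondrial stress response, was 39.8, 41.8, 47.1 and 36.3 CPM in chow control and 35.7 through 42.4 to 47.5 CPM in chow renin. High-fat control ran from 42.0 through 47.2 to 59.8 CPM, and high-fat renin gave 57.1, 58.0, 66.4, 58.0 and 68.3 CPM. The 5 high-fat renin libraries lay above all libraries of both chow groups, and 2 of them above all of high-fat control. Atf5 had a log2 fold change of 0.58 (SE 0.10, adjusted p = 0.00132) against chow control, 0.35 (SE 0.09, adjusted p = 0.0123) against high-fat control and 0.55 (SE 0.09, adjusted p = 4.43e-05) against chow renin. These 3 calls, and that of Atf4 against chow control, held without any single library. The weaker call of Atf4 against chow renin was lost without chow control library 1 or 2, chow renin library 1, 2, 3 or 5, or high-fat renin library 1, 2 or 5 (adjusted p 0.0504 to 0.203).

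Ddit3, the growth arrest factor CHOP, was 13.1, 10.5, 13.1 and 12.3 CPM in chow control and 17.7, 15.1, 19.2, 17.2 and 14.1 CPM in high-fat renin. Chow renin ran from 9.16 through 12.5 to 13.9 CPM, and high-fat control, the most spread group, from 10.2 through 16.6 to 21.4 CPM. The 5 high-fat renin libraries lay above all of both chow groups. Against chow renin the log2 fold change was 0.48 (SE 0.14, adjusted p = 0.0181), which was lost without high-fat renin library 1 (adjusted p 0.0554) and after adjustment for the fibroblast score (0.31, adjusted p = 0.245). Against chow control it was 0.44 (SE 0.16, adjusted p = 0.0947). High-fat control gave 0.42 against chow control (SE 0.16, adjusted p = 0.328). Without high-fat renin library 1 the count of 7 members called against chow renin was 3, and without chow renin library 1 it was 4.

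**Figure D3:**
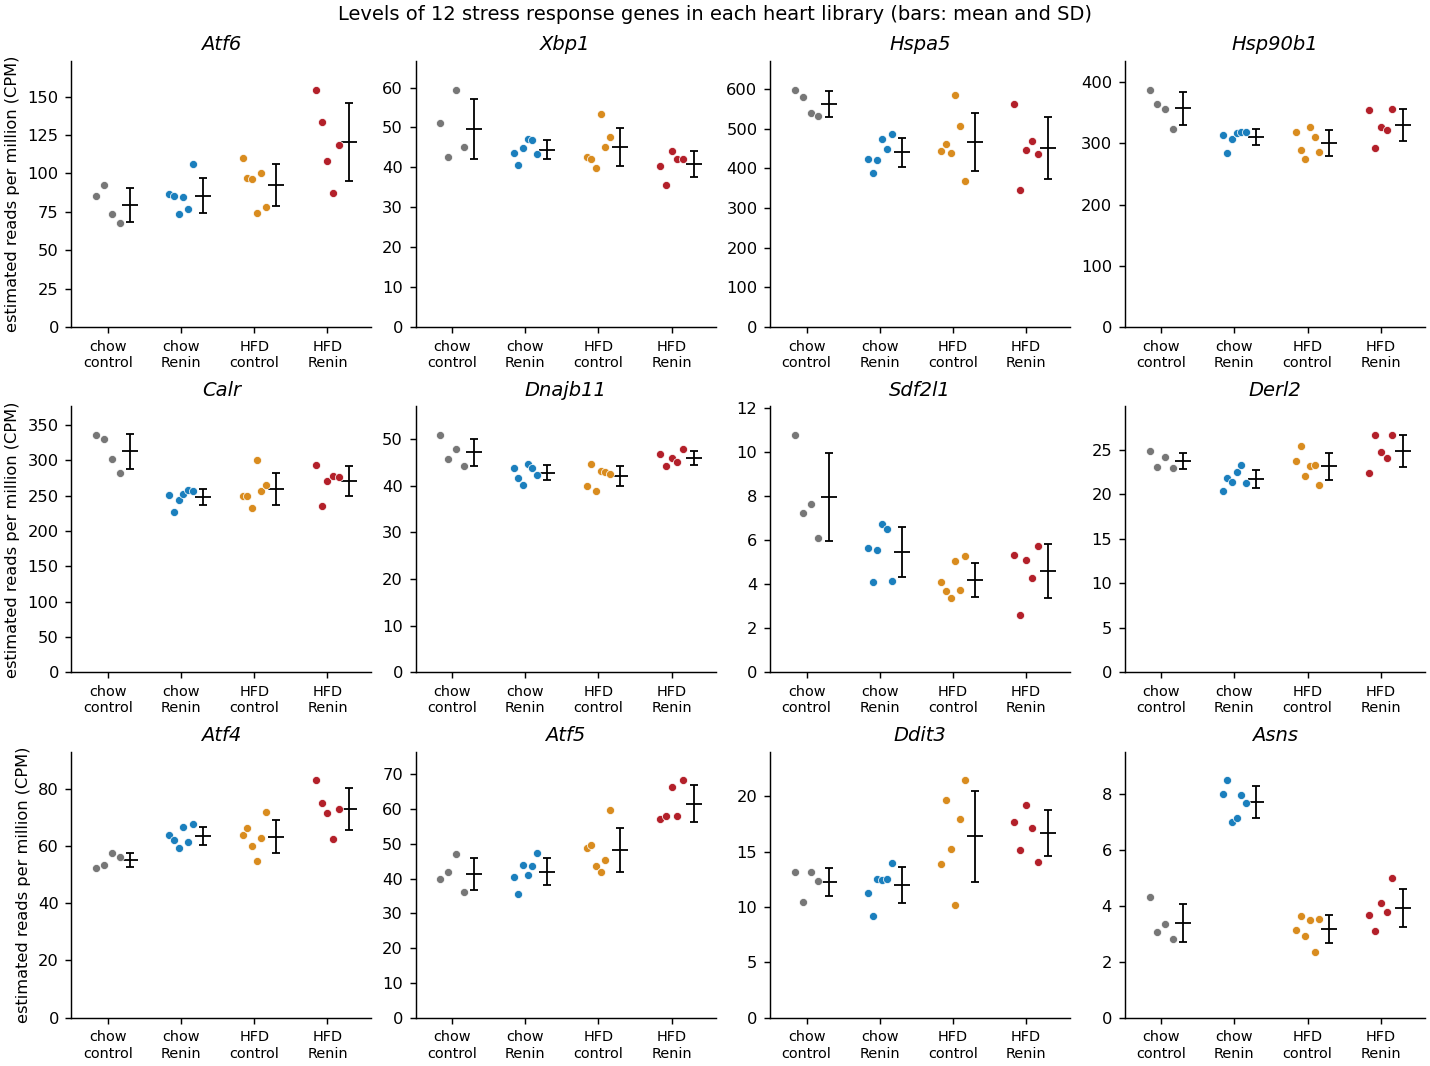
CPM of 12 genes in every library (points), with the mean and SD of each group (bars), on axes that start at 0. The high-fat renin libraries of Atf5 (57.1 to 68.3 CPM) stand above both chow groups, the chow renin libraries of Asns (7.02 to 8.50 CPM) stand apart from all others, and Hspa5, Calr and Hsp90b1 are highest in chow control.

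Asns, which makes asparagine and is a direct target of ATF4, rose in chow renin. It gave 4.33, 3.06, 3.37 and 2.81 CPM in chow control, 7.02 through 7.82 to 8.50 CPM in chow renin, 2.34 through 3.33 to 3.63 CPM in high-fat control and 3.67, 3.09, 4.09, 3.80 and 4.99 CPM in high-fat renin. The 6 chow renin libraries did not overlap with any other group. Chow renin had a log2 fold change of 1.18 (SE 0.15, adjusted p = 1.61e-06), and in high-fat renin versus chow renin -0.97 (SE 0.13, adjusted p = 5.25e-06). Renin on the high-fat diet gave 0.30 (SE 0.13, adjusted p = 0.148), and the difference between diets was -0.88 (SE 0.20, adjusted p = 0.00394). The 3 calls held without any single library, and none of them held after adjustment for the central nervous score (adjusted p 0.882 and above), where the value in chow renin was 0.36. That fit called 30 of all genes higher and 1 lower in chow renin, where 1537 and 511 were called without the score. The same 6 libraries are those with the high nervous and stimulated stromal markers, so these cannot be told apart for this gene.

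Sesn2, a stress-induced inhibitor of mTORC1, rose from 4.69 ± 0.630 CPM in chow control (n = 4) to 6.06 ± 0.490 CPM in chow renin (n = 6), a log2 fold change of 0.37 (SE 0.11, adjusted p = 0.0286). The call was lost without chow control library 1, 3 or 4, or chow renin library 1 or 4 (adjusted p 0.0535 to 0.123), and after adjustment for the clock score (0.19, adjusted p = 0.508) or the central nervous score (0.91, adjusted p = 0.428). The targets Chac1, Trib3 and Ppp1r15a were called in none of the comparisons. Chac1, which degrades glutathione, lay at 0.13 in high-fat renin (adjusted p = 0.744), Trib3 at -0.02 (adjusted p = 0.956) and Ppp1r15a, the phosphatase subunit GADD34 that ends the eIF2α signal, at -0.09 (adjusted p = 0.643). In high-fat renin versus chow control the transcription factors Atf4 and Atf5 were called, and 0 of the 6 other genes of their arm were. Of all genes 8.29% were called there, 4.05% higher, so 0 of 6 does not set those genes apart. The median of the 8 genes was 0.19 in that comparison, against 0.01 over all genes.

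**Figure D4:**
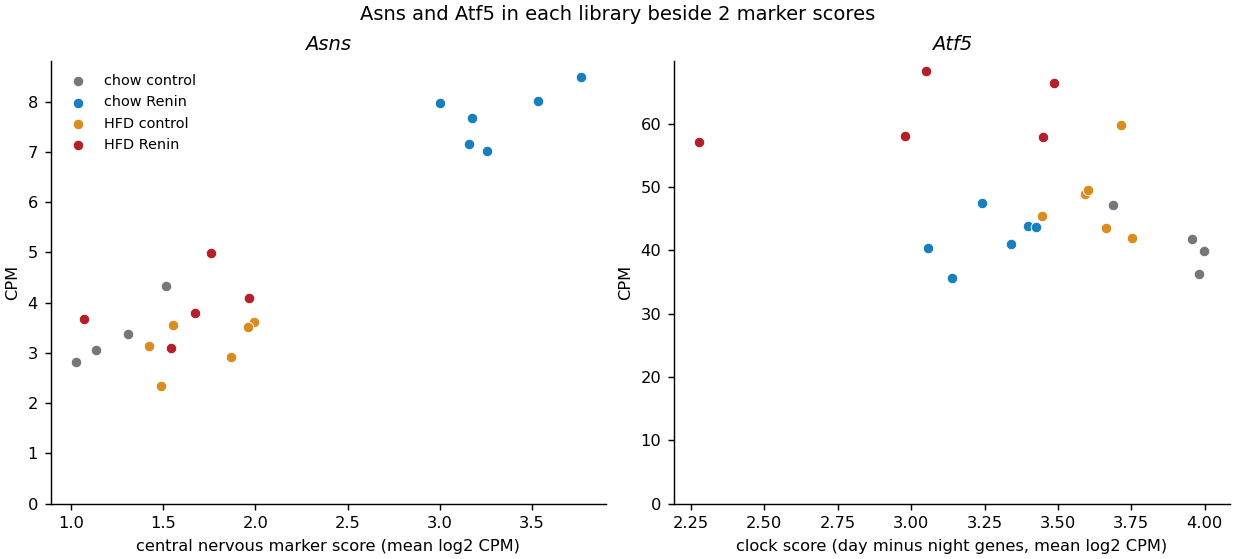
CPM of Asns against the central nervous marker score (left) and of Atf5 against the clock score (right), 1 point per library, coloured by group. The 6 chow renin libraries are separate on both axes for Asns, and for Atf5 the high-fat renin libraries (57.1 to 68.3 CPM) have clock scores of 2.28 to 3.49, below those of chow control.

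Other settings of the analysis ended some of the 27 calls. Those of Atf5 in 3 comparisons, of Atf4 against chow control and of Asns in 3 comparisons held under every setting that tested them apart from the marker scores. In chow renin, Hspa5, Hsp90b1 and Pdia6 were lost with upper-quartile factors, with no filter on low counts, with only genes of a mean of at least 20 CPM and with limma on TPM, and Hsp90b1 and Pdia6 also when libraries were thinned to the smallest. Sesn2 was lost there with no filter, Hsp90b1 with RLE factors and Pdia6 with only the groups compared. Derl2 and Atf4 against chow renin were lost with upper-quartile factors, no filter, the 20 CPM mean filter, limma and thinning, and Atf6 and Ddit3 with limma. With only the groups compared, Pdia6, Sdf2l1 and Atf6 against chow control, Sel1l, P4hb, Herpud1 and Hspa13 against high-fat control, and Herpud1 against chow renin were lost in high-fat renin. P4hb and Hspa13 were also lost with no filter, Sel1l with thinning, and Herpud1 against high-fat control and Pdia6 against chow control with limma. Of the interactions, Dnajb11 was lost with upper-quartile factors, no filter, the 20 CPM mean filter, limma and thinning, Hsp90b1 with that filter and limma, and Calr with that filter.

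After adjustment for the clock score, 0 members were called in high-fat renin versus chow control and 0 against high-fat control, and 0 of all genes tested were called in either comparison. Against chow control the value of Atf5 was then 0.66 (adjusted p = 0.253), that of Atf4 0.19 (adjusted p = 0.693) and that of Atf6 0.09 (adjusted p = 0.945), with Pdia6 at -0.29 (adjusted p = 0.631) and Sdf2l1 at -0.69 (adjusted p = 0.652). The clock score does not overlap between high-fat renin and chow control, so the score and the group cannot be told apart there. It overlaps in part with high-fat control, whose scores were 3.45 to 3.75, and against that group the values were 0.41 for Atf5 (0.35 without the score), 0.12 for Sel1l (0.29), 0.15 for Hspa13 (0.32), 0.13 for P4hb (0.18) and -0.30 for Herpud1 (-0.43), with adjusted p 0.390 to 0.895. Against chow renin, whose scores of 3.06 to 3.42 lie within the range of high-fat renin, 5 of the 7 calls held: Atf5 at 0.57 (adjusted p = 6.86e-05), Atf6 at 0.35 (adjusted p = 0.0236), Ddit3 at 0.49 (adjusted p = 0.0298), Derl2 and Asns. Atf4 at 0.14 (adjusted p = 0.124) and Herpud1 at -0.33 (adjusted p = 0.0751) were lost. The scores of chow renin do not overlap with those of chow control either, and in that comparison the clock score ended the calls of Hspa5 (-0.44, adjusted p = 0.0585), Hsp90b1 (-0.25, adjusted p = 0.0899) and Pdia6 (-0.25, adjusted p = 0.181), with values about as large as without it, while Calr (-0.33, adjusted p = 0.0268) and Asns (1.27) stayed called.

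After adjustment for the central nervous score, 0 members were called in chow renin, in the interaction, or between high-fat renin and chow renin, where every adjusted p of the 7 was 0.999817. Few genes were called at all in these fits: 30 higher and 1 lower in chow renin, 0 and 25 in the interaction, and 1 and 36 between high-fat renin and chow renin. In chow renin the value of Hspa5 with this score was -0.11 (-0.35 without the score), that of Hsp90b1 -0.08 (-0.21), that of Pdia6 -0.09 (-0.25) and that of Calr -0.26 (-0.33). Against chow renin, Atf6 in high-fat renin lay at 0.02 (0.49 without the score), Ddit3 at 0.11 (0.48), Atf5 at 0.43 (0.55) and Derl2 at 0.32 (0.19). In the interaction Calr then lay at 0.32, Dnajb11 at 0.37, Hsp90b1 at 0.21 and Asns at -0.01. After adjustment for the fibroblast score, Atf5 kept its calls against chow control (0.46, adjusted p = 0.0196) and chow renin (0.43, adjusted p = 0.00609) and missed the threshold against high-fat control (0.27, adjusted p = 0.0589). The calls of Pdia6 (-0.31, adjusted p = 0.0771) and Sdf2l1 (-0.83, adjusted p = 0.0573) against chow control were lost in that fit with values no smaller than before. Against chow renin the calls of Ddit3, Atf4 (0.16, adjusted p = 0.21) and Herpud1 (-0.39, adjusted p = 0.0867) were lost, the last again with no smaller a value.

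Wider lists of the same pathways, which overlap with none of the 35 genes, gave the setting. Of 47 tested genes of the integrated stress response, 10 were called in high-fat renin versus chow control, 9 higher and 1 lower (21.3%), with a median of 0.10, beside 8.29% of all genes, 4.05% higher and 4.25% lower. Mthfd2, the mitochondrial folate enzyme, rose by 1.26 (SE 0.20, adjusted p = 0.000652), from 2.57 to 3.79 CPM in chow control to 6.38 to 10.8 CPM. Gdf15, a circulating stress hormone, rose by 2.81 (SE 0.62, adjusted p = 0.00987), from 0.498 to 4.15 CPM to 4.46 to 18.1 CPM, and Lars, the leucyl-tRNA synthetase, rose by 0.33 (SE 0.08, adjusted p = 0.00928). Slc7a1, an importer of cationic amino acids, lay at -0.997 (SE 0.16, adjusted p = 0.000944). Without chow control library 2 or 4, or high-fat renin library 2 or 5, the 10 calls became 5 to 7, and without high-fat renin library 3 or 4 they became 14 and 15.

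Against high-fat control the same list had 12 higher and 5 lower of 47 in high-fat renin (36.2%), with a median of 0.15, beside 11.1% of all genes, 6.07% higher and 5.08% lower. They included Aldh18a1, which starts proline synthesis, at 0.60 (SE 0.13, adjusted p = 0.00496), the alanyl- and cysteinyl-tRNA synthetases Aars at 0.30 (SE 0.06, adjusted p = 0.00499) and Cars at 0.35 (SE 0.08, adjusted p = 0.00522), and Gdf15 at 2.46 (SE 0.51, adjusted p = 0.0057). All of these calls of high-fat renin versus chow control and against high-fat control were lost with the clock score, where 0 of 47, and 0 of all genes, were called in each. Without high-fat renin library 1 or 5 the 17 calls became 8 and 7, and without library 2 they became 10.

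In chow renin, 8 of 47 were called, all higher (17%), beside 13.5% of all genes, 10.1% higher. They were led by the serine enzymes Psat1 at 1.28 (SE 0.13, adjusted p = 1e-07) and Phgdh at 1.46 (SE 0.16, adjusted p = 4.22e-07). Mthfd2 at 1.25 (SE 0.19, adjusted p = 2.93e-05) and the cystine importer Slc7a11 at 0.86 (SE 0.17, adjusted p = 0.00075) followed. As for Asns, 0 of these 8 calls held with the central nervous score, a fit that called 30 of all genes higher and 1 lower. In high-fat renin versus chow renin 3 were higher and 10 lower (27.7%, beside 22.6% of all genes), with Phgdh at -1.31 (SE 0.15, adjusted p = 3.79e-07), Slc7a11 at -1.37 (SE 0.16, adjusted p = 6.59e-07), Psat1 at -0.98 (SE 0.12, adjusted p = 8.58e-07) and Cth, which makes cysteine, at -1.32 (SE 0.19, adjusted p = 1.13e-05). The interaction was called for 7, all lower (14.9%, beside 10.4% of all genes), among them Slc7a11 at -1.51 (SE 0.23, adjusted p = 6.98e-05). In high-fat control 0 of 47 were called by edgeR and by DESeq2, with 7 at an unadjusted p under 0.05. Without chow control library 4 the count in chow renin was 5.

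Of the 67 other tested genes of ER folding, transport and degradation, in high-fat renin versus chow control 1 rose and 4 fell (7.46%), with a median of 0.02, where 8.29% of all genes were called. Spcs3, a subunit of the signal peptidase, rose by 0.38 (SE 0.09, adjusted p = 0.0141), while Selenos, a selenoprotein of the degradation complex, fell by 0.36 (SE 0.08, adjusted p = 0.0105). In chow renin 0 rose and 3 fell (4.48%, beside 13.5% of all genes), with a median of -0.04 and Srprb, a subunit of the signal recognition particle receptor, at -0.22 (SE 0.06, adjusted p = 0.0142). In high-fat control 0 were called by edgeR and by DESeq2, with 4 at an unadjusted p under 0.05. Against high-fat control 5 rose and 2 fell in high-fat renin (10.4%, beside 11.1% of all genes), led by Spcs3 at 0.50 (SE 0.08, adjusted p = 0.0013), and against chow renin 7 rose and 2 fell (13.4%, beside 22.6%). The interaction was called upward for Spcs3, at 0.50 (SE 0.12, adjusted p = 0.00859), and Fkbp14, a prolyl isomerase, at 0.41 (SE 0.13, adjusted p = 0.0454).

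These counts also moved with single libraries. The 5 calls of high-fat renin versus chow control became 1 to 3 without any single chow control library or without high-fat renin library 1, 2 or 5. The 3 in chow renin became 0 without chow control library 1 or 2 or chow renin library 1, and 1 without chow control library 4 or chow renin library 2, 3, 5 or 6. Against high-fat control the 7 became 1 to 4 without high-fat renin library 1, 2 or 5 or high-fat control library 5, and 18 without high-fat renin library 4. Against chow renin the 9 became 4 or 5 without chow renin library 1, 3 or 4 or high-fat renin library 1, 2 or 5. The 2 interactions became 1 without chow control library 2, chow renin library 1, 2 or 5, high-fat control library 1 or 5, or high-fat renin library 1 or 5, 4 without high-fat control library 6 and 6 without high-fat renin library 4.

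**Figure D5:**
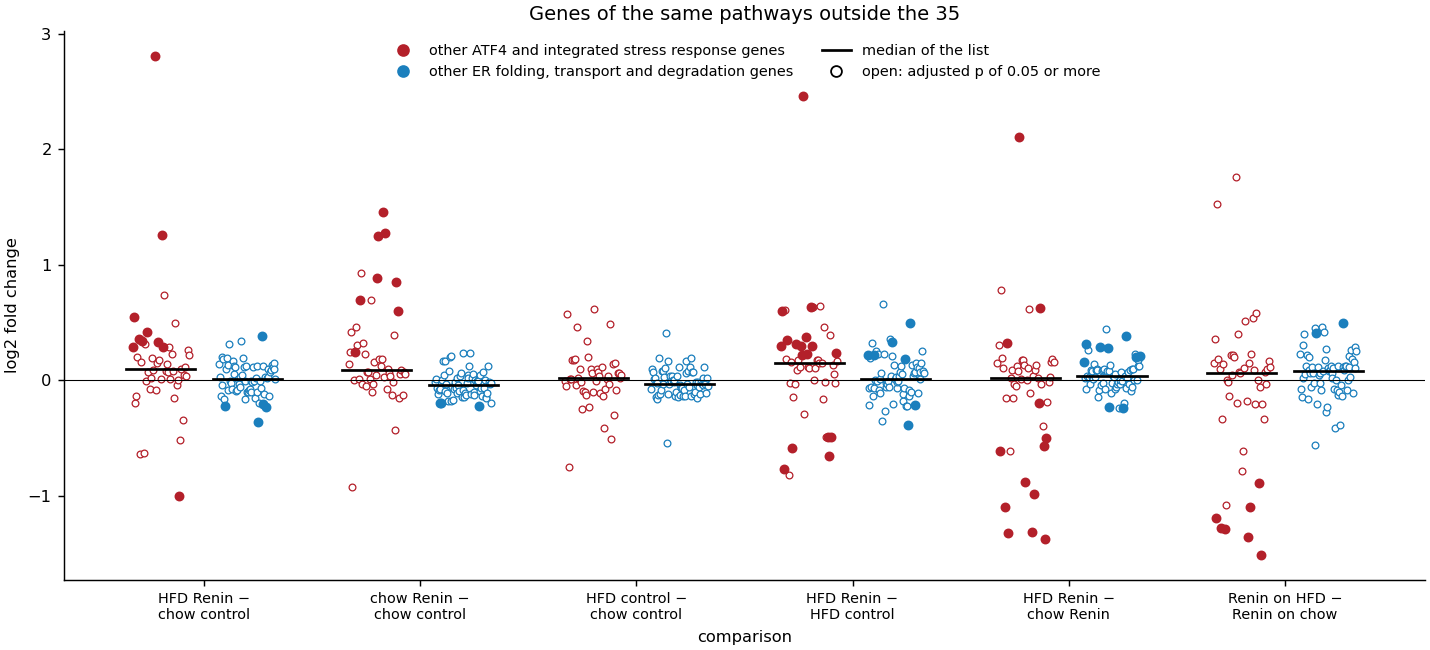
Log2 fold change of each of the 47 other integrated stress response genes (red) and 67 other ER genes (blue) in the 6 comparisons, filled where the adjusted p was under 0.05, with a bar at the median of each list. The red points spread more widely than the blue ones, with Gdf15 at 2.81 at the top in high-fat renin versus chow control.

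The authors' deposited table lists fold changes (log2) with adjusted p-values for a comparison it names HFD+virus, with no reference group stated. Of the 35 members, 5 had an adjusted p under 0.05 in the authors' deposited table, beside 1296 of 16122 genes. They were Atf4 at 0.35 (adjusted p = 6.5e-05), Atf5 at 0.41 (adjusted p = 0.00112), Atf6 at 0.46 (adjusted p = 0.00235), Pdia6 at -0.23 (adjusted p = 0.0256) and Sdf2l1 at -0.51 (adjusted p = 0.00895), in the authors' deposited table.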

How the data were processed

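Heart RNA of 21 mice was sequenced, with libraries made and read at a service laboratory. Per the submitters' processing notes the tools were Salmon 1.10.2 and DESeq2 1.40.2 and the builds named were GRCm38 and mm10, with no roles given. Per the file headers, the authors deposited for each library a transcript table with estimated counts (expected counts, not normalized) and TPM, and 1 gene table with a signal per library and a log2 fold change with an adjusted p-value. The signal columns were not analysed.

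Estimated counts were summed to genes of GENCODE M21, rounded to whole numbers, filtered by group with filterByExpr (15216 genes left) and tested in 1 fit with edgeR 4.0.16 in R 4.3.3 (TMM, robust glmQLFit, glmQLFTest, Benjamini-Hochberg over all genes tested). CPM uses TMM-scaled library sizes. The fit was also run on simulated counts, and the outcome of that run is not reported here. DESeq2 1.42.0 and limma 3.58.1 on log2(TPM + 1) were alternatives. Replicates are separate mice and p-values measure the spread between them. The 46 pairs of libraries within groups all differed by more than sampling noise, with a chi-square of 3.50 or more per degree of freedom.

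The members and lists were chosen with earlier results of these data known. All 35 members are accounted for. Members called in any comparison are named, and values in every library are given for Hspa5, Xbp1, Atf4, Ddit3 and the called members with the smallest adjusted p, 12 in all. From each wider list at most 4 called genes per comparison are named, by smallest adjusted p.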

Additional observations from a re-analysis of the deposited data

Results flagged for a closer look

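In 72 groups of libraries (18 named genes in 4 groups each), a library farther from the others than expected in 95% of small groups was found 3 times, and chance alone gives about 1 in 20. Hsp90b1 was lowest in chow renin library 2 at 285 CPM, where the next library had 307 CPM. Hspa13 was highest in chow control library 1 at 15.8 CPM, where the next had 12.8 CPM, and lowest in high-fat control library 6 at 8.99 CPM, where the next had 11.6 CPM.

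The effect of renin differed between the diets, by edgeR's test of the interaction, for 4 genes. On the log2 scale the renin effect under high-fat feeding less the one under chow was 0.34 for Hsp90b1, 0.40 for Calr, 0.27 for Dnajb11 and -0.88 for Asns. After adjustment for the central nervous score none of the 4 was called, and 25 of all genes were, with values of 0.21 for Hsp90b1, 0.32 for Calr, 0.37 for Dnajb11 and -0.01 for Asns.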

How the results depend on the processing

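The counts of members called, 5 in high-fat renin and 6 in chow renin against chow control, 0 in high-fat control, 5 and 7 for high-fat renin relative to high-fat control and to chow renin, and 4 for the interaction, moved as follows. With no filter on low counts chow renin had 2 and high-fat renin versus high-fat control 3. With a mean of at least 20 CPM chow renin had 2, high-fat renin versus chow renin 3 and the interaction 0. With limma on log2(TPM + 1), which shifted all genes by up to 0.11 in the median, the counts were 4, 3, 3, 9, 3 and 3 in the order above. There the split in chow renin was 3 higher and 0 lower, in high-fat renin versus chow renin 1 higher and 2 lower, and against high-fat control 9 higher and 0 lower. With upper-quartile factors the split against chow renin was 3 higher and 2 lower. DESeq2 called 3 in high-fat control. With only the groups compared, high-fat renin had 3 against chow control and 1 against high-fat control. With the clock score it had 0 in both, as had all genes, and chow renin had 3. With the central nervous score chow renin had 0, high-fat renin versus high-fat control 3, against chow renin 0, and the interaction 0. In high-fat renin versus chow renin, Herpud1 reversed there to 0.57 and Atf4 to -0.12, both with adjusted p = 0.999817. With the fibroblast score high-fat renin had 3 against chow control and 4 against chow renin. The causes were not tested. Leaving out single libraries gave 3 to 7, 3 to 8, 0 to 2, 1 to 7, 3 to 8 and 2 to 5 in the order above. In high-fat control 2 were called without high-fat control replicate 4. In high-fat renin versus chow control 3 were called without chow control replicate 1. Equal replicate numbers are not said to mark a shared litter or day. Deviations of same-numbered libraries correlated at -0.23 to 0.42 over 28 pairs (median 0.08), against -0.26 to 0.40 over 136 other pairs (median -0.02). Values over 0.1 were seen in 11 of the 28 and in 21 of the 136. A fit with the replicate block called 6, 7, 0, 6, 8 and 5, without P4hb and Hspa13 in high-fat renin versus high-fat control. Depth limits the low genes: Derl3 was not tested.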
